A study of Mus musculus with 6 samples.

Results

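Cerebellins, the delta receptor gene Grid1 and the neurexin genes Nrxn2 and Nrxn3 were examined in ribosome-bound RNA of the mouse thalamus. The 7 genes were chosen by name (Cbln1, Cbln2, Cbln3, Cbln4, Grid1, Nrxn2 and Nrxn3), out of 32531 gene rows in each count table, and all 7 passed the filter on low counts that left 16496 genes for testing. The libraries came from the dissected thalamus of untreated control mice of the line Slc17a6-EGFP/Rpl10a JX883, in which ribosomal protein Rpl10a carries EGFP and the line takes its name from Slc17a6, which encodes VGLUT2, a vesicular glutamate transporter. The tagged polysomes were pulled from homogenised tissue with anti-EGFP antibodies (translating ribosome affinity purification, TRAP) to give 3 immunopurified libraries (IP), which were set against 3 libraries of the thalamic Input. Both groups carry the same transgene and no treatment. The labels do not give the sex or age of the mice, whether animals were pooled, or whether replicate numbers are separate animals, so p-values measure only the spread between these libraries. The labels name ribosome-bound RNA as the molecule of Input too, and Input was taken to be RNA of the whole tissue.

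Cerebellins are small secreted proteins of the C1q family that assemble through disulfide bonds and bridge the synaptic cleft. On the presynaptic side they bind neurexins that contain a short alternatively spliced insert. On the postsynaptic side some of them, such as Cbln1 and Cbln2, bind delta receptors. Delta receptors belong by sequence to the ionotropic glutamate receptors and organise synapses. Each neurexin gene encodes long alpha and shorter beta proteins from separate promoters, and gene counts sum over them. Cbln1 is best known from cerebellar granule cells, where it is needed for parallel fibre synapses, and it is also made in some thalamic nuclei that project to the striatum. Cbln3 is known in mouse mainly from cerebellar granule cells.

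Reads can be assigned to a gene only where its sequence differs from its relatives, so the coding sequences of the cerebellins were compared first (GENCODE M21 transcripts, GRCm38, the assembly of mm10). Cbln1 and Cbln4 were identical at 70.4% of 570 aligned coding bases, and their longest shared exact run was 14 bases. It lies in exon 1 of both genes, beside and within the codons for the N-terminal cysteines through which cerebellin trimers are linked. The windows below are on the minus strand, at chr8:87472116-87472177 for Cbln1 and chr2:172042165-172042226 for Cbln4, with the shared run in capitals and 24 flanking bases on each side in lower case.
Cbln1: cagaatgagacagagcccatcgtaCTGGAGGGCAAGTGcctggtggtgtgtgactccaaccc
Cbln4: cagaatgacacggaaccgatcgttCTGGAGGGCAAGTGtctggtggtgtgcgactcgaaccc
The longest run shared by any cerebellin pair was 21 bases, between Cbln1 and Cbln3 and between Cbln2 and Cbln4, and identity over the 6 pairs ranged from 64.3% to 75.1%. Nrxn2 and Nrxn3 were identical at 70.4% of 4656 aligned coding bases, with a longest shared run of 23 bases. The window with that run and its flanks covers parts of exons 7 and 8 of transcript Nrxn2-208, within chr19:6472366-6473334 on the plus strand, and of exons 5 and 6 of transcript Nrxn3-205, within chr12:89193154-89254690 on the plus strand.
Nrxn2: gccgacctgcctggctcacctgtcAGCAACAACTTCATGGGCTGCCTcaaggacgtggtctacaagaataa
Nrxn3: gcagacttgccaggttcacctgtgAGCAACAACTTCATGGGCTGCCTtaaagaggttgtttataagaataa

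The genes lie apart in the genome. On GRCm38, Cbln1 lies on chromosome 8 from 87468405 to 87472609, Cbln2 on chromosome 18 from 86711110 to 86718283, Cbln3 on chromosome 14 from 55878913 to 55884392, and Cbln4 on chromosome 2 from 172036233 to 172043466. Grid1 lies on chromosome 14 from 34820108 to 35583379, Nrxn2 on chromosome 19 from 6418731 to 6544169, and Nrxn3 on chromosome 12 from 88722876 to 90334935. In that annotation no exonic base of a cerebellin gene was shared with another gene, while 1.53% of Grid1, 6.44% of Nrxn2 and 3.48% of Nrxn3 exonic bases were. The overlapping genes lie on the same strand as Grid1 and on the opposite strand to Nrxn2 and Nrxn3. The sources used here give neither the strand setting nor the mode of counting. How reads in those shared bases were counted is therefore not known.

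The IP libraries held between 52068141 and 54421395 gene reads, and the Input libraries between 44081149 and 47340321. A count of 3 reads corresponded to at most 0.0681 CPM (counts per 1e6 gene reads) before scaling. All CPM values that follow are TMM-scaled. Markers of glutamatergic thalamic neurons summed to between 7079.8 and 11882 CPM in IP and between 2508 and 7672 CPM in Input. Of these markers 4 of 9 were higher in IP, beside 9.6% of all genes tested. Slc17a6 itself had 6489.5, 2193 and 2200.0 CPM in IP replicates 1, 2 and 3 and 3153, 875 and 477 CPM in Input replicates 1, 2 and 3, and with log2 1.27 ± 0.68 (SE) did not pass (edgeR-based adjusted p = 0.206, and 0.000246 once libraries were paired by number, at log2 1.52). Of the glial markers, 8 of 8 of oligodendrocytes and 7 of 8 of astrocytes were lower in IP. So were 7 of 8 of microglia and 5 of 6 of oligodendrocyte precursors. Of neuronal markers, 7 of 11 of GABAergic neurons, 6 of 9 of habenula neurons and 1 of 8 of striatum were lower. Of all genes tested, 15.6% were lower. Of 7 tested markers of cerebellar granule cells, 2 were higher and 1 lower in IP, and Gabra6, the defining one, had no read in any library. Of cortex and hippocampus markers 0 of 11 and of hypothalamus markers 0 of 8 passed the test (edgeR; 0 and 0 at an unadjusted p under 0.05, 0 and 1 by DESeq2, 0 and 0 by limma-voom). Once libraries were paired by number, 2 of the cortex and hippocampus markers were higher and 1 lower. With that pairing 2 of hypothalamus and 4 of striatum were lower, where 35.1% of genes tested were called in either direction. Input replicate 3 stood apart. In it the thalamic markers stood, at the median, at 0.559 times the other Input libraries, those of habenula 0.274 times and of hypothalamus 0.0828 times, while those of cortex and hippocampus had 8.37 times and of striatum 4.61 times. Values of each member are therefore also given without that library.

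Of the 7 genes, Cbln1 and Nrxn2 rose in IP and none fell, at an adjusted p under 0.05 by the edgeR quasi-likelihood test, where 9.6% of all genes tested rose and 25.2% were called in either direction. DESeq2 and limma-voom also called 2 higher and 0 lower, and at an unadjusted edgeR p under 0.05 it was again 2 and 0. Of the 16496 genes tested, 2090, 1742 and 2664 were higher by these. In a paired fit, with the replicate number as a block so that each IP is set against the Input of its number, 4 of 7 rose (Cbln1, Cbln2, Cbln4 and Nrxn2) and 0 fell, where 15.9% of genes rose and 35.1% were called. Without IP replicate 2, Input replicate 2 or both of them, 0 of 7 rose by edgeR. In those fits 731 of 17346, 810 of 16872 and 83 of 16632 genes tested rose, against 1583 of 16496 with all libraries. Without IP replicate 1, IP replicate 3 or both libraries of replicate 3, 1 rose, where 1276 of 17365, 808 of 17324 and 972 of 17039 genes rose. Without Input replicate 1 or both libraries of replicate 1, 3 rose, where 1395 of 16950 and 1440 of 16668 genes rose. In this bulk RNA, a difference in the share of cells that express a gene cannot be told apart from a difference in RNA per cell.

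**Figure D1:**
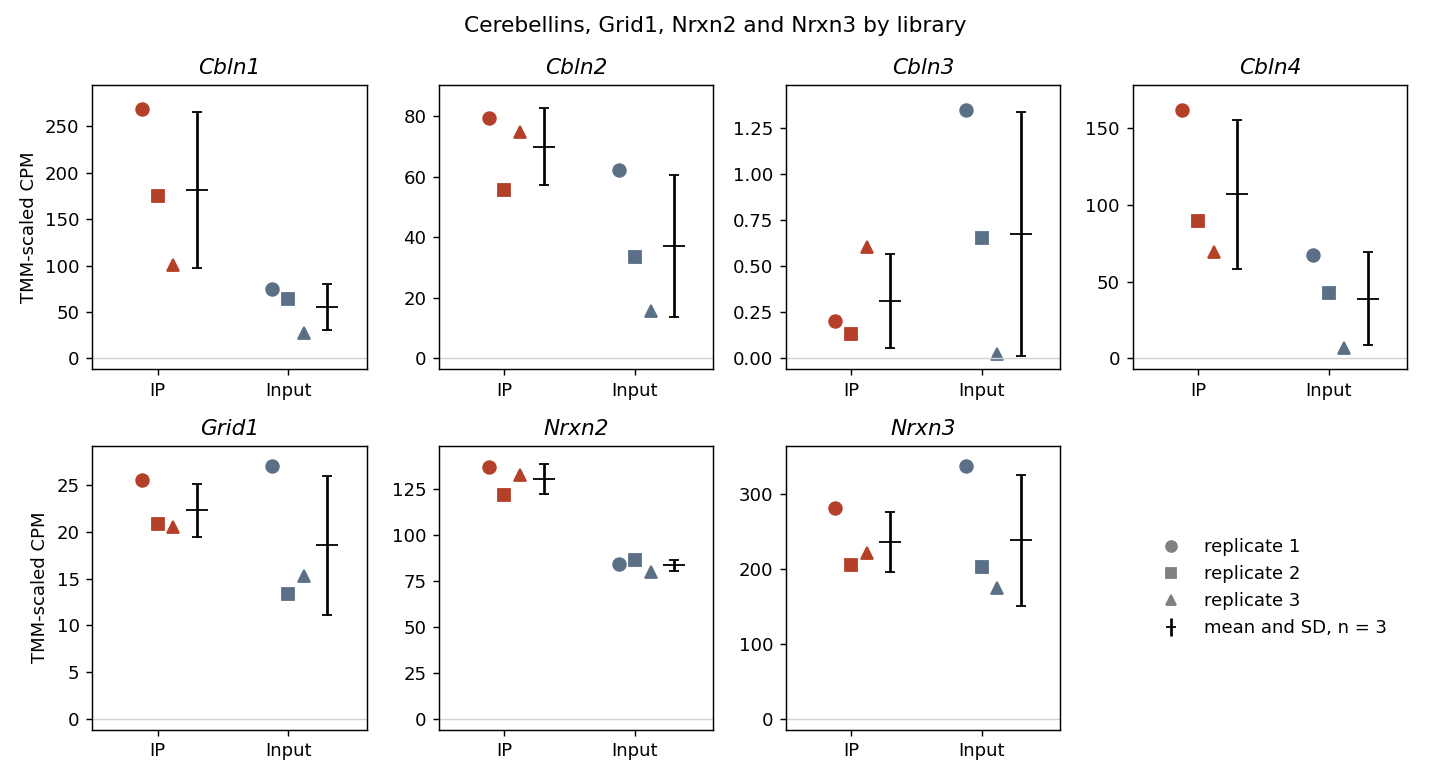
TMM-scaled CPM (vertical axis, linear from 0, a scale of its own for each gene) of the 7 genes in each IP and Input library, with symbols for replicate numbers and bars for mean and SD (n = 3). All IP points of Cbln1, Cbln4 and Nrxn2 lie above all Input points, the Nrxn2 points being the tightest, and the lowest Input points of Cbln1, Cbln2 and Cbln4 are those of replicate 3.

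Cbln1, the founding member of the family, rose in IP. It had 268, 175 and 101 CPM (TMM-scaled, as above and below) in IP replicates 1, 2 and 3, against 74.3, 63.9 and 27.4 CPM in Input replicates 1, 2 and 3. The groups did not overlap, as for 44.9% of genes tested, and within both groups replicate 3 was the lowest. All 3 IP values lay above all 3 Input values for 19.9% of genes tested. IP over Input was 3.61, 2.74 and 3.69 within replicates 1, 2 and 3, a narrower spread than that of the levels. The log2 fold change was 1.72 ± 0.43 (SE; edgeR-based adjusted p = 0.0209), and 1.73 in the paired fit (edgeR-based adjusted p = 3.3e-05). The call ended without IP replicate 1 (log2 1.33, edgeR-based adjusted p = 0.0592), without IP replicate 2 (log2 1.75, edgeR-based adjusted p = 0.0533) or without Input replicate 2 (log2 1.84, edgeR-based adjusted p = 0.0530). Without Input replicate 3 it held, at log2 1.40 (edgeR-based adjusted p = 0.0338). It also ended without both libraries of replicate 2 (log2 1.86, edgeR-based adjusted p = 0.118).

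Cbln4, the cerebellin reported to bind the receptor Dcc as well as neurexins, had 162, 89.4 and 69.0 CPM in IP replicates 1, 2 and 3. In Input replicates 1, 2 and 3 it had 67.3, 42.8 and 6.95 CPM. The groups did not overlap, but the lowest IP value and the highest Input value were close, and Input replicate 3 was far below the others, at 0.126 times their mean. Of 10907 genes averaging at least 5 CPM, 0.0275% were lower still in that library relative to the other Input libraries, on the log2(CPM + 1) scale. IP over Input was 2.41, 2.09 and 9.93 within replicates 1, 2 and 3. The fitted log2 fold change, 1.45 ± 0.67 (SE), fell short of the threshold (edgeR-based adjusted p = 0.145), whereas in the paired fit it was 1.83 and passed (edgeR-based adjusted p = 0.00336). Without Input replicate 3 it was 0.97 (edgeR-based adjusted p = 0.109), and without Input replicate 1 it was 2.11 (edgeR-based adjusted p = 0.0606).

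Cbln2, which shares the neurexin and delta receptor partners of Cbln1, had 79.4, 55.7 and 74.9 CPM in IP replicates 1, 2 and 3. In Input replicates 1, 2 and 3 it had 62.2, 33.4 and 15.7 CPM. The groups overlapped, since Input replicate 1 was above IP replicate 2. Each IP value was nevertheless above the Input value of its own replicate number, with IP over Input at 1.28, 1.66 and 4.78, as for 30.3% of genes tested. The fitted log2 fold change, 0.92 ± 0.43 (SE), fell short of the threshold (edgeR-based adjusted p = 0.151), whereas in the paired fit it was 1.10 and passed (edgeR-based adjusted p = 0.0199). It also passed without Input replicate 1, at 1.52 (edgeR-based adjusted p = 0.0195), and without both libraries of replicate 1, at 1.41 (edgeR-based adjusted p = 0.0379). Without Input replicate 3 it was 0.56 (edgeR-based adjusted p = 0.219), and without both libraries of replicate 3 it was 0.51 (edgeR-based adjusted p = 0.350).

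Cbln3, which in mouse cerebellum forms complexes with Cbln1 and needs it to be secreted, was near the limit of detection. It had 10, 7 and 33 reads in IP replicates 1, 2 and 3 and 62, 32 and 1 reads in Input replicates 1, 2 and 3. The most were in Input replicate 1 and the fewest in Input replicate 3, and the groups overlapped. The fitted log2 fold change, -1.10 ± 1.25 (SE), fell short of the threshold (edgeR-based adjusted p = 0.562), and it was 0.12 without both libraries of replicate 1 and -1.65 without Input replicate 3. Of the other markers of cerebellar granule cells, Fat2 had 0 reads in IP and 1 in Input, and Tlx3 had 1 read in IP and 0 in Input. Zic1 and Zic2, which some thalamic neurons also express, had log2 fold changes of 0.87 and 0.94 and were the 2 that rose. Etv1 fell, with a mean of 35.5 CPM in IP and 69.0 CPM in Input. Neurod1 averaged 9.53 CPM in IP and 10.6 CPM in Input, and the other detected markers were low, with 593 reads in IP and 272 in Input for Cdh15, 126 in IP and 502 in Input for Pax6, and 395 in IP and 28 in Input for Barhl1. Barhl1 had 0.243, 0.132 and 6.92 CPM in IP replicates 1, 2 and 3 and 0.0217, 0.184 and 0.409 CPM in Input replicates 1, 2 and 3, so that IP replicate 3 was the highest of the 6, while Cbln3 was highest in Input replicate 1. The part of such cells in the Cbln3 reads was not tested.

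Grid1 encodes GluD1, the delta receptor of forebrain neurons, which sits postsynaptically and binds cerebellins such as Cbln1 and Cbln2. It had 25.6, 20.8 and 20.5 CPM in IP replicates 1, 2 and 3, against 27.0, 13.3 and 15.3 CPM in Input replicates 1, 2 and 3. The groups overlapped, with the highest of all 6 values in Input replicate 1. IP over Input was 0.947, 1.56 and 1.34 within replicates 1, 2 and 3. The log2 fold change was 0.27 ± 0.30 (SE) and did not pass (edgeR-based adjusted p = 0.565, and 0.312 in the paired fit). Without Input replicate 3 it was 0.16.

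**Figure D2:**
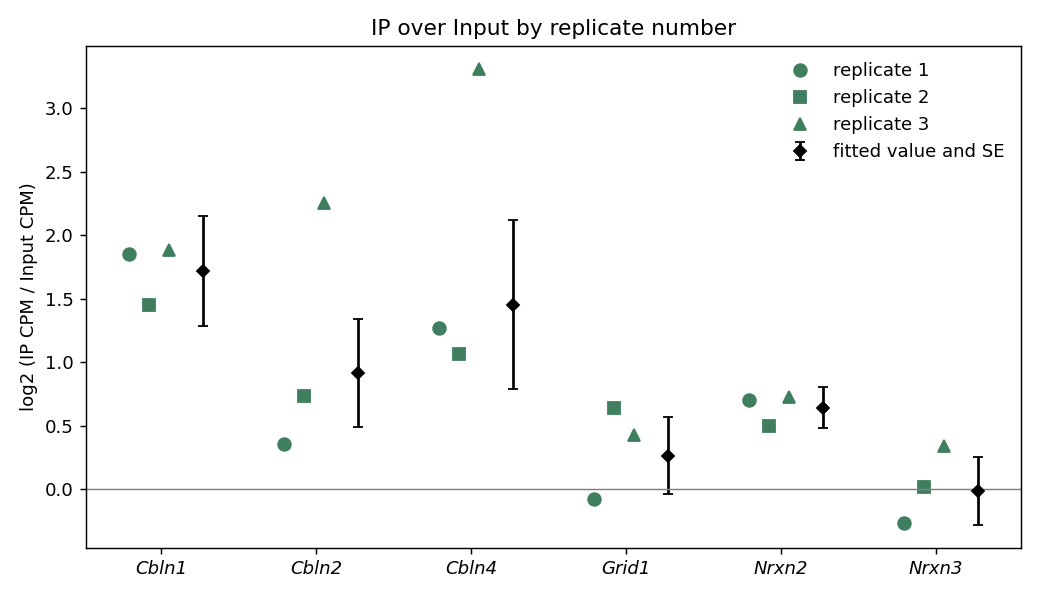
Log2 of IP CPM over Input CPM (vertical axis) within each replicate number, with symbols for replicates, beside the fitted log2 fold change and its SE (diamonds and bars) for the 6 genes other than Cbln3, whose Input replicate 3 held 1 read. Cbln1 and Nrxn2 show the closest agreement between replicates, and replicate 3 stands far above the others for Cbln2 and Cbln4.

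Nrxn2, a presynaptic neurexin gene, had 137, 122 and 133 CPM in IP replicates 1, 2 and 3, against 84.4, 86.3 and 80.2 CPM in Input replicates 1, 2 and 3. The groups did not overlap and varied little, with SDs of 7.99 CPM in IP and 3.15 CPM in Input. Of the 10907 genes averaging at least 5 CPM, 97.1% had a wider range among Input libraries than Nrxn2. IP over Input was 1.63, 1.41 and 1.66 within replicates 1, 2 and 3. Nrxn2 rose by log2 0.64 ± 0.16 (SE; edgeR-based adjusted p = 0.0205, and 0.00719 in the paired fit). The call ended without IP replicate 2, IP replicate 3 or Input replicate 2, where the log2 fold change was 0.70, 0.64 and 0.67 (edgeR-based adjusted p = 0.0583, 0.0734 and 0.0679). It also ended without both libraries of replicate 2 or of replicate 3, at 0.71 and 0.61 (edgeR-based adjusted p = 0.175 and 0.101). Without Input replicate 3 it held, at 0.63 (edgeR-based adjusted p = 0.0371).

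Nrxn3, its paralogue, had 281, 205 and 221 CPM in IP replicates 1, 2 and 3. In Input replicates 1, 2 and 3 it had 337, 203 and 174 CPM. The groups overlapped, and IP over Input was 0.833, 1.01 and 1.27 within replicates 1, 2 and 3, on both sides of 1. The log2 fold change was -0.01 ± 0.27 (SE; edgeR-based adjusted p = 0.979), and 0.03 in the paired fit (edgeR-based adjusted p = 0.892). Without Input replicate 3 it was -0.18. Whether Nrxn2 and Nrxn3 differed was tested on their read shares. Of the reads of both genes, Nrxn2 took 32.8%, 37.2% and 37.5% in IP replicates 1, 2 and 3, against 20.0%, 29.9% and 31.5% in Input replicates 1, 2 and 3. The IP shares all lay above the Input shares, at means of 35.9% ± 2.64 in IP and 27.1% ± 6.22 in Input (SD, n = 3), with an exact two-sided permutation p = 0.1, the smallest that 3 against 3 libraries can give, and 0.5 adjusted over the 5 shares tested.

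The reads of the 4 cerebellin genes were split mainly among Cbln1, Cbln4 and Cbln2 in every library. No share could pass 0.05 with 3 against 3 libraries, so the p-values only place each difference within the spread. Cbln1 took 49.5% ± 7.27 of the reads of the 4 genes in IP and 45.5% ± 9.27 in Input (SD, n = 3; exact permutation p = 0.7). Cbln4 took 29.3% ± 2.15 in IP and 25.7% ± 10.3 in Input (exact permutation p = 0.9), and Cbln2 took 21.2% ± 8.14 in IP and 28.5% ± 4.10 in Input (exact permutation p = 0.3). Cbln3 took 0.109% ± 0.119 in IP and 0.389% ± 0.313 in Input (exact permutation p = 0.2). Adjusted over the 5 shares, these p-values ranged from 0.5 to 0.9. The permutations did not use the pairing. Within replicate numbers, the IP share of Cbln2 was below its Input share in 3 of 3 pairs, by little in replicate 3, and the Nrxn2 share was above in 3 of 3. Single libraries stood off their group. Cbln2 took 30.5% in IP replicate 3, against 15.6% and 17.4% in IP replicates 1 and 2, and Cbln4 took 13.9% in Input replicate 3, against 32.8% and 30.4% in Input replicates 1 and 2.

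**Figure D3:**
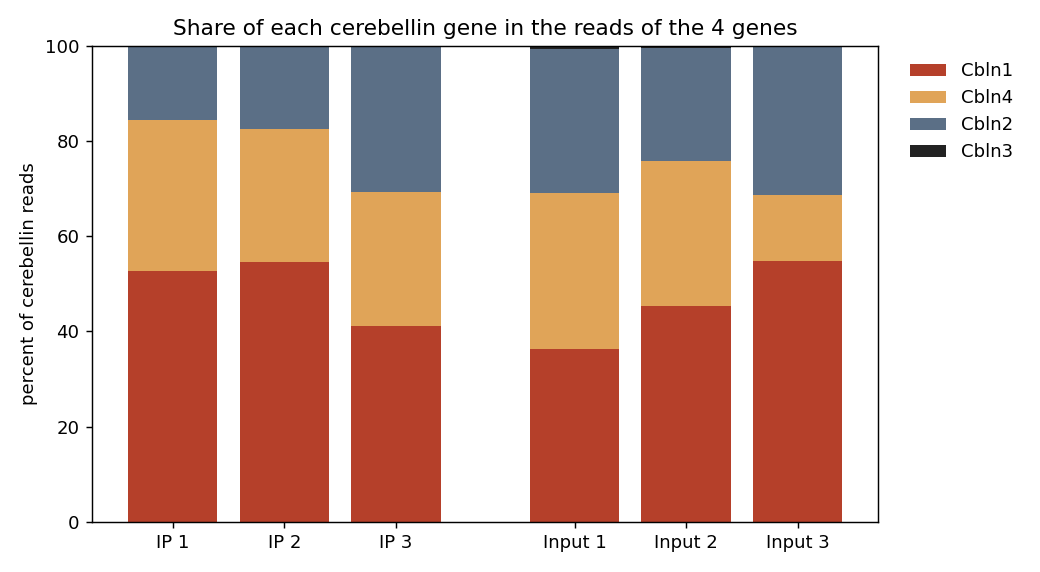
Percent of the reads of the 4 cerebellin genes (vertical axis, from 0 to 100) that each gene took in each library, IP libraries left and Input libraries right. Cbln1 takes between 36.2% and 54.8% in every library, Cbln4 is smallest in Input replicate 3, and Cbln3 is barely visible.

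The summed level of the 4 cerebellins was 509.95, 320.1 and 246 CPM in IP replicates 1, 2 and 3, and 205, 141 and 50.0 CPM in Input replicates 1, 2 and 3. The summed markers of glutamatergic thalamic neurons were 11882, 7906 and 7079.8 CPM in IP replicates 1, 2 and 3 and 7672, 4515 and 2508 CPM in Input replicates 1, 2 and 3. That sum was largely Slc17a6 in IP replicate 1, and the other thalamic markers differed in their replicate order. Rora, Ntng1 and Lhx9 had the order of the summed cerebellins, falling from replicate 1 to replicate 3 in both groups. Rora had 1240, 1122 and 1083 CPM in IP replicates 1, 2 and 3 and 1822, 1238 and 709 CPM in Input replicates 1, 2 and 3. Others, Tcf7l2 among them, did not have that order. Tcf7l2 had 2028, 2722 and 2205 CPM in IP replicates 1, 2 and 3 and 1110.1, 1341 and 685 CPM in Input replicates 1, 2 and 3, with replicate 2 highest in both groups. Habenula markers summed to 41.1, 32.5 and 44.7 CPM in IP replicates 1, 2 and 3 and to 350.0, 199 and 110.4 CPM in Input replicates 1, 2 and 3. The part of these cell types in the cerebellin levels was not tested.

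Levels were compared between genes per kilobase of exonic sequence (CPM per kb). In IP the order was Cbln1 at 59.8 ± 27.6, Cbln4 at 36.8 ± 16.8, Cbln2 at 24.2 ± 4.36 and Nrxn3 at 18.7 ± 3.17 CPM per kb (SD, n = 3), and neighbours among these 4 overlapped in their range over libraries. Nrxn2 at 9.46 ± 0.579, Grid1 at 3.74 ± 0.475 and Cbln3 at 0.0645 ± 0.0527 CPM per kb followed without overlap. In Input, Nrxn3 led at 18.9 ± 6.91 CPM per kb, before Cbln1 at 18.2 ± 8.11, Cbln4 at 13.4 ± 10.5, Cbln2 at 12.8 ± 8.11 and Nrxn2 at 6.05 ± 0.228 CPM per kb, each overlapping its neighbour. Grid1 at 3.11 ± 1.24 and Cbln3 at 0.139 ± 0.136 CPM per kb came last. Neurexin genes have many transcripts, and per kilobase of the longest transcript Nrxn3 had 29.8 CPM per kb in IP, above Cbln2 at 27.5 CPM per kb. In Input, Cbln2 at 14.6 CPM per kb of the longest transcript likewise stood above Cbln4 at 13.4 CPM per kb. The order within these pairs of genes thus depends on the length used.

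The partners of these proteins were read from 5 lists of 38 genes, of which 36 were tested, C1ql4 and Nxph2 being too low. By edgeR 5 rose, 0 fell and 31 did not pass, with a median log2 fold change of 0.46, beside -0.04 over all genes tested, of which 15.6% fell and 9.6% rose. At an unadjusted edgeR p under 0.05 it was 14 higher and 1 lower, with DESeq2 8 and 1, with limma-voom 6 and 0. In the paired fit it was 15 and 1. Of all 16496 genes tested, 2664 were higher and 3636 lower at an unadjusted p, and 2090 and 3263 with DESeq2. Limma-voom gave 1742 and 2714 of them, and the paired fit 2624 and 3163. Leaving out replicate 2 in both groups gave 0 and 0, where 83 of 16632 genes tested rose and 651 fell. Without Input replicate 2 it was 2 higher and without Input replicate 1 it was 9 higher, while without Input replicate 3 it was 5 higher. Over all genes tested, 810 of 16872, 1395 of 16950 and 1640 of 17296 rose in these fits.

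Of the 4 tested genes of the C1q-related list, which holds 3 secreted organisers and the receptor Adgrb3, 2 organisers rose, beside 9.6% of all genes tested. C1ql3 had 125, 64.5 and 48.6 CPM in IP replicates 1, 2 and 3, against 30.7, 14.4 and 12.6 CPM in Input replicates 1, 2 and 3. It rose by log2 2.05 ± 0.44 (SE; edgeR-based adjusted p = 0.0118). C1ql2 had 23.2, 10.3 and 17.3 CPM in IP, against 3.87, 3.56 and 7.04 CPM in Input, and rose by log2 1.81 ± 0.41 (SE; edgeR-based adjusted p = 0.0142). Neither gene overlapped between groups. The C1ql3 call ended without both libraries of replicate 2 (edgeR-based adjusted p = 0.0959). The C1ql2 call ended without Input replicate 2 (edgeR-based adjusted p = 0.0565) and without both libraries of replicate 1 or of replicate 2 (edgeR-based adjusted p = 0.0916 and 0.0784). Adgrb3, the adhesion receptor of C1q-like proteins on the receiving cell, had a log2 fold change of -0.35 ± 0.29 (edgeR-based adjusted p = 0.424). Adgrb3 and the other genes named here and below that did not pass, Neo1 apart, were chosen after their values were seen.

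Of the 18 tested ligands of neurexins, 1 rose, and 8 in the paired fit, where 9.6% and 15.9% of all genes tested rose. The gene that rose was Car10, a carbonic anhydrase-related protein that binds neurexins in the secretory pathway, with 212, 233 and 275 CPM in IP replicates 1, 2 and 3, against 167, 136 and 94.1 CPM in Input replicates 1, 2 and 3. On the log2 scale it rose by 0.86 ± 0.24 (SE; edgeR-based adjusted p = 0.0287). The call ended without IP replicate 2, IP replicate 3 or Input replicate 2 (edgeR-based adjusted p = 0.0725, 0.0925 and 0.0799), and without both libraries of replicate 2 or of replicate 3, at log2 0.90 and 0.56 (edgeR-based adjusted p = 0.187 and 0.137). Neuroligins, the classical postsynaptic ligands, did not pass. Nlgn1, of excitatory synapses, had a log2 fold change of -0.31 ± 0.27 (edgeR-based adjusted p = 0.442), Nlgn2, of inhibitory synapses, one of 0.61 ± 0.24 (edgeR-based adjusted p = 0.0956, and 0.0154 in the paired fit), and Nlgn3 one of 0.32 ± 0.27 (edgeR-based adjusted p = 0.436). The leucine-rich repeat ligands Lrrtm1 and Lrrtm2 were abundant, at 234 ± 19.5 and 299 ± 24.9 CPM in IP and 153 ± 67.9 and 283 ± 99.0 CPM in Input (SD, n = 3). Their log2 fold changes were 0.61 and 0.08 (edgeR-based adjusted p = 0.165 and 0.846), the sign of that of Lrrtm2 turned with upper-quartile scaling, and Lrrtm1 passed in the paired fit (edgeR-based adjusted p = 0.0171). The neurexophilin Nxph1, which binds alpha-neurexins, and Igsf21 had log2 fold changes of 0.86 and 1.32, and both passed in the paired fit (edgeR-based adjusted p = 0.110 and 0.0697 without pairing, 0.00254 and 0.00441 with it).

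**Figure D4:**
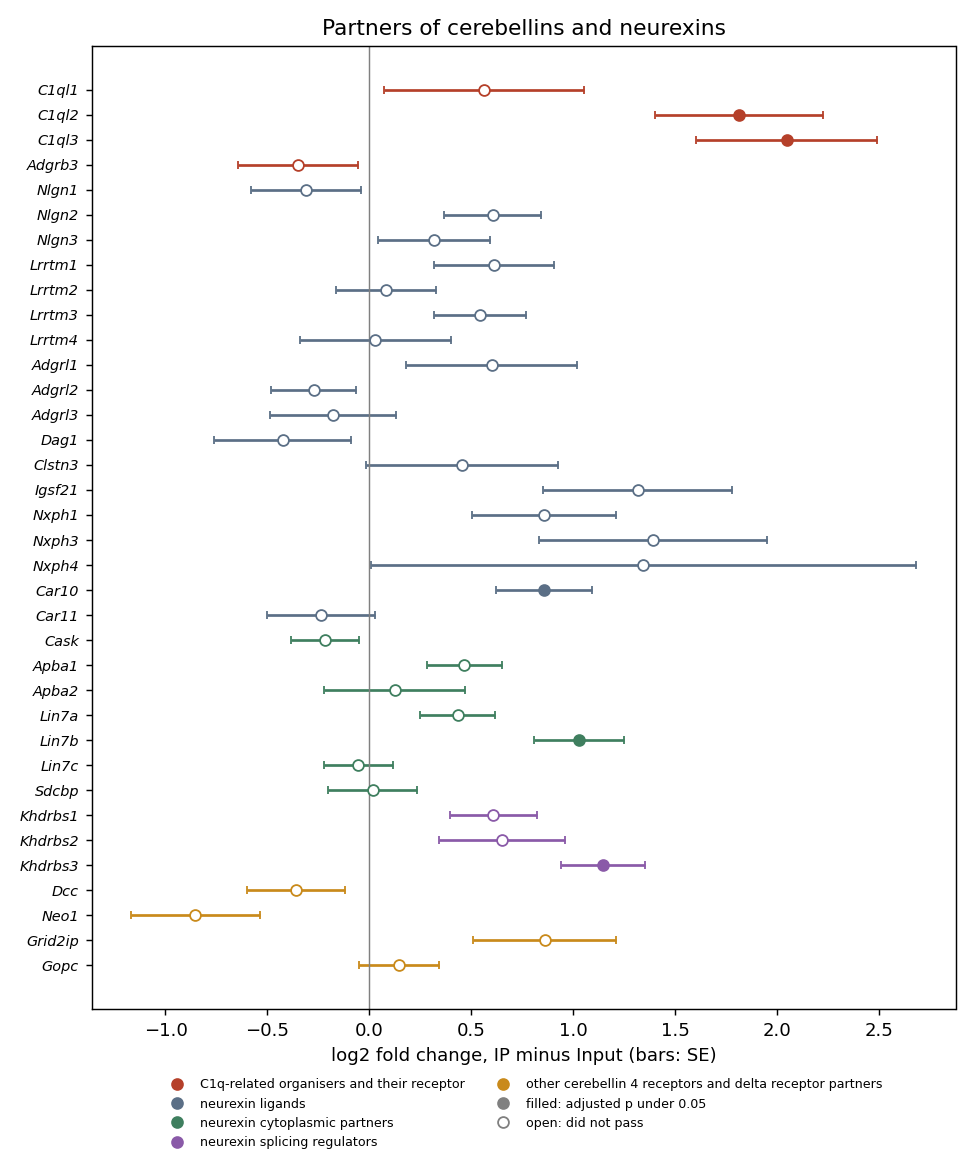
Fitted log2 fold change of IP minus Input (horizontal axis) with its SE for the 36 tested partner genes, coloured by list, with filled points where the edgeR-based adjusted p was under 0.05. The 5 filled points are C1ql2, C1ql3, Car10, Lin7b and Khdrbs3, all right of 0, and 10 of the open points lie left of 0.

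Inside the presynaptic terminal, the neurexin tail binds a scaffold of Cask, Mint and Lin7 proteins. Of 7 tested genes of this list 1 rose, and 3 in the paired fit, where 9.6% and 15.9% of all genes tested rose. Lin7b rose, with 36.3, 40.8 and 40.5 CPM in IP replicates 1, 2 and 3 and 15.9, 18.4 and 23.5 CPM in Input replicates 1, 2 and 3. On the log2 scale it rose by 1.03 ± 0.22 (SE; edgeR-based adjusted p = 0.0113, 0.0505 without Input replicate 2, and 0.158 without both libraries of replicate 2), while Cask had a log2 fold change of -0.22 ± 0.17 (edgeR-based adjusted p = 0.379). Of the 3 splicing regulators of the neurexin insert that cerebellins recognise 1 rose, and 2 in the paired fit, beside the same 9.6% and 15.9%. Khdrbs3 rose, with 123, 156 and 143 CPM in IP replicates 1, 2 and 3 and 50.3, 64.5 and 75.7 CPM in Input replicates 1, 2 and 3. It rose by log2 1.15 ± 0.21 (SE; edgeR-based adjusted p = 0.00585), a call that held without any 1 library and ended without both libraries of replicate 2 (edgeR-based adjusted p = 0.106). Khdrbs1 had a log2 fold change of 0.61 ± 0.21 (edgeR-based adjusted p = 0.0695, and 0.0108 in the paired fit). Splicing itself cannot be read from gene counts.

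Of the 4 genes for other cerebellin 4 receptors and delta receptor partners, 0 passed by edgeR, with 1 higher and 1 lower at an unadjusted p under 0.05, 0 and 1 by DESeq2, and 0 by limma-voom. In the paired fit 1 fell, where 19.2% of all genes tested fell. Neo1, neogenin, had 95.9, 71.2 and 61.6 CPM in IP replicates 1, 2 and 3, against 209.5, 103 and 101 CPM in Input replicates 1, 2 and 3. The groups did not overlap, but the fitted log2 fold change, -0.85 ± 0.32 (SE), fell short of the threshold (edgeR-based adjusted p = 0.0817), and it was -0.79 and passed in the paired fit (edgeR-based adjusted p = 0.00433). Its paralogue Dcc had a log2 fold change of -0.36 ± 0.24 (edgeR-based adjusted p = 0.310), and Grid2ip, a scaffold of delta receptors in the cerebellum, one of 0.86 ± 0.35 (edgeR-based adjusted p = 0.107).

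The genes whose levels most resembled Cbln1, Cbln2, Cbln4, Grid1 and Nrxn2 were found by Pearson's r of log2(CPM + 1) over the 6 libraries, among 10626 genes averaging at least 5 CPM. These are descriptions over 6 points that share the split into IP and Input. They were Gatb, Prkar1a and Lypd6 for Cbln1 (r from 0.994 to 0.995), Kbtbd7, Pcdh18 and Eif1a for Cbln2 (r from 0.992 to 0.993), and Tcaim, Pycr1 and Ephb2 for Cbln4 (r from 0.997 to 0.999). For Grid1 they were Gpr137c, Syap1 and Tmem175 (r from 0.975 to 0.980), and for Nrxn2 Cdc42bpb, Pef1 and Bloc1s4 (r from 0.998 to 0.999).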

How the data were processed

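Per the labels, the authors deposited raw counts of reads per gene, a table for each of the 3 IP and 3 Input libraries. The submitters' processing notes name STAR 2.0.0e, HTSeq and mm10, and the sources used here do not give the annotation or the counting mode. The summary lines of HTSeq entered neither library sizes nor any test. They put 40.8% of records in IP and 25.8% in Input at more than 1 place, as means over libraries. As ambiguous they put 1.79% in IP and 9.34% in Input, with 13.2%, 7.43% and 7.37% in Input replicates 1, 2 and 3. Records in no gene feature were 7.76% in IP and 16.25% in Input. The filter on low counts was filterByExpr, by group. TMM factors were used, and IP minus Input was tested two-sided with the quasi-likelihood method of edgeR 4.0.16 in R 4.3.3. P-values were adjusted by Benjamini-Hochberg over all genes tested, with a threshold of 0.05. The script was tested on simulated data. Alternatives were other scalings, DESeq2 1.42.0, limma-voom (limma 3.58.1), other filters, the replicate number as a block, and leaving out libraries or clone-accession features. Replicate numbers come from the titles. An IP library and the Input library of its number moved the same way about their own group's mean (correlation over genes 0.456 for replicate 1, 0.215 for replicate 2 and 0.246 for replicate 3). Each was over 0.1, and same-numbered libraries were therefore paired in the fit with the replicate block and in the ratios of IP over Input. The main edgeR fit, from which genes are said to rose or fall short, did not use the pairing. The sequencing lane follows the replicate number and cannot be told apart from it. The members and lists were chosen with earlier results of these data known. From each partner list, called genes were named (up to 5 by adjusted p), or the most abundant gene where none was called, and the 3 most alike genes were named for members with a mean of at least 1 CPM. Gene positions, lengths and sequences are from GENCODE M21. Some other genes of these families, and the genes most like Nrxn3, are not reported here.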

Additional observations from a re-analysis of the deposited data

How the results depend on the processing

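For each member other than Cbln3, 18 alternative settings were tried. The direction of Cbln1, Cbln2, Cbln4, Grid1 and Nrxn2 was the same in all of them, and the calls of Cbln1 and Nrxn2 held in 14 and 13 of 18. With the replicate block, 2624 genes, 4 members and 15 partner genes were higher in IP and 1 partner gene was lower, with Cbln2 at log2 1.10 and Cbln4 at 1.83 now past the threshold; the block ended no member's call. DESeq2 called 8 partner genes higher and 1 lower, and scaling by library totals 1 lower. Nrxn3 turned to 0.033 with the block and to 0.032 with limma-voom, and Lrrtm2 to -0.0041 with upper-quartile factors. Leaving out 1 library, or both libraries of a replicate number, gave 83 to 1640 genes higher (1583 with all libraries) and 651 to 2598 lower (2566 with all), 0 to 3 members higher and 0 lower, and 0 to 9 partner genes higher and 0 to 1 lower. In these fits the log2 fold change was 1.33 to 2.01 for Cbln1, 0.51 to 1.52 for Cbln2, -2.56 to 0.12 for Cbln3, 0.97 to 2.11 for Cbln4, 0.08 to 0.65 for Grid1, 0.61 to 0.71 for Nrxn2, -0.18 to 0.33 for Nrxn3 and -0.078 to 0.41 for Lrrtm2. The filter of at least 1 CPM left out Cbln3. The cause of these changes was not tested. With 3 libraries a group, an exact permutation test cannot go below 0.1, and Cbln3 had 1 to 62 reads per library, a spread that Input libraries of similar depth also showed.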
